A study of Mus musculus with 11 samples.

Results

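The 10 interferon-gamma-inducible GTPases described here were followed through the endothelium of tumour-bearing and healthy bone marrow. They comprise 7 guanylate-binding proteins (GBPs), encoded by Gbp2, Gbp3, Gbp4, Gbp5, Gbp6, Gbp7 and Gbp9, and 3 immunity-related GTPases (IRGs), encoded by Irgm1, Igtp and Iigp1. The members were chosen by name. Each matched 1 row of a gene count table of 27179 rows, and 10 of 10 passed the filter on low counts, which left 11949 genes for testing.

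The libraries were made from endothelial cells (ECs) with high CD31 and high endomucin (CD31hi EMCNhi), sorted from the bone marrow of BALB/c mice aged 8 to 10 weeks after a gate that removed CD45+ blood cells and Ter-119+ red cells. The burdened mice carried cells of the 4T1.2 mammary tumour line, labelled with red fluorescent protein (RFP), in their bones. The paper used intracardiac injection to study lesion outgrowth, and does not restate the route for these libraries. The bones were microdissected under fluorescence into tumour-infiltrated marrow (met, 3 libraries) and adjacent marrow without visible tumour (non-met, 6 libraries). Age-matched healthy BALB/c mice without tumour cells gave the control ECs (2 libraries). A mouse pool held the cells of 1 to 4 animals, and the 4 burdened pools gave both kinds of marrow except pool Burdened-1, which gave only non-met libraries. Burdened-1 and Burdened-2 gave 2 non-met libraries each, so the 6 non-met libraries stand for 4 pools. RNA was amplified with a low-input kit, and the total counts ran from 5029771 to 19539761 in control, from 733342 to 7683451 in non-met and from 2547520 to 8771860 in met libraries. Non-met marrow is defined by the absence of visible RFP, and in a pool of sorted cells a change in the share of responding cells and a change in RNA per cell cannot be told apart.

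GBPs and IRGs are large GTPases of cell-autonomous immunity. Interferon-gamma binds its receptor on the cell surface, signals through the kinases JAK1 and JAK2, and with the factor IRF1 switches on these genes in most cell types, ECs included. The proteins assemble on the vacuoles of intracellular pathogens and on exposed bacteria, and GBPs are also tied to inflammasome activation.

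Interferons act through short promoter elements, so the promoters of 4 members, 2 GBPs and 2 IRGs, are printed here as examples. They were read from the RefSeq promoter set of GRCm38.p6, the build to which the reads were aligned, each with 250 bases before and 50 after the annotated start. An entry was found for 6 of the 10 members (Gbp2, Gbp3, Gbp5, Gbp7, Irgm1 and Igtp). The entries of Gbp4, Gbp6, Gbp9 and Iigp1 were not found. Capitals mark matches to GAAANNGAAA, a core of the interferon-stimulated response element (ISRE) bound by IRF factors, and to TTCNNNGAA, the gamma-activated site (GAS), each searched on both strands. The promoters lie on the plus strand of chromosome 3 at chr3:142620413-142620712 (Gbp2) and chr3:142559794-142560093 (the first of 2 listed starts of Gbp3), on the minus strand of chromosome 11 at chr11:48871371-48871670 (Irgm1) and on its plus strand at chr11:58199306-58199605 (Igtp).
Gbp2: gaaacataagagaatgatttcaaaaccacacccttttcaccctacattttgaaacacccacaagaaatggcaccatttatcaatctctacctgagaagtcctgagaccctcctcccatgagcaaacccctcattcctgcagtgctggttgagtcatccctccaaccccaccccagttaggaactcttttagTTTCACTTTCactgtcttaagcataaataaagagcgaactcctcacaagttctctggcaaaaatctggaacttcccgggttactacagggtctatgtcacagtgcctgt
Gbp3: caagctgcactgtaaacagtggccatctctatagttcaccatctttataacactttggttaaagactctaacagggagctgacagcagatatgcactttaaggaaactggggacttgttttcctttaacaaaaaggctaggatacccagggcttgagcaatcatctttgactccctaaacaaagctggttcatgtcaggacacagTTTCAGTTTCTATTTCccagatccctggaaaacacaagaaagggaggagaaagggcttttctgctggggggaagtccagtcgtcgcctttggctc
Irgm1: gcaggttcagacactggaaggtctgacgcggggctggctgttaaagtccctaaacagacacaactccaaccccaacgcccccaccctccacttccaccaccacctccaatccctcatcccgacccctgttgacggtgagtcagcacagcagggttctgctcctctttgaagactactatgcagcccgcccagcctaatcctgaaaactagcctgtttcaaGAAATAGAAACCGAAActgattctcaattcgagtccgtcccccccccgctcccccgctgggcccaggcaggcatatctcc
Igtp: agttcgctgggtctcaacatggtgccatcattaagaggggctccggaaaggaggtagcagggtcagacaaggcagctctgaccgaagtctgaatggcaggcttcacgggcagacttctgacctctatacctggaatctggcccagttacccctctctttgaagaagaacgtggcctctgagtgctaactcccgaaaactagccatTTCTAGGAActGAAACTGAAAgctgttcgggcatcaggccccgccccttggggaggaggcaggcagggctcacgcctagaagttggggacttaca
The ISRE core begins 59 bases upstream of the start in Gbp2. Gbp3 holds 2 overlapping copies, 45 and 39 bases upstream, and Irgm1 holds 2 overlapping copies 30 and 24 bases upstream. In Igtp a GAS 45 bases upstream is followed by an ISRE core 34 bases upstream. Gbp5 has the ISRE core 165 bases upstream with GAS copies at 245 and 52, and Gbp7 has it 53 bases upstream with GAS copies at 106 and 87. The ISRE core was thus found for 6 of 6 genes with an entry, in a set where 3.44% of 32851 promoters hold it, and the GAS for 3 of 6, where 8.30% of promoters hold it. The second listed start of Gbp3 held neither pattern. These are matches of letters in a window of 300 bases and not measurements of binding.

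Summed over the 10 genes, the GTPase transcripts were more abundant in every met library than in every other library. The sum was 4155, 3352 and 2690 CPM (counts scaled to 1000000 reads per library, after correction by the trimmed mean of M-values, TMM) in met libraries 1, 2 and 3. In the 6 non-met libraries it had a minimum of 686, a median of 1123 and a maximum of 1838 CPM, and in the controls it was 887 and 841 CPM. Met libraries therefore do not overlap either other group in this sum, while the controls lie within the non-met range. Averaged on the log2 CPM scale with a prior count of 2, the members stood at 7.69 ± 0.12 (SD, n = 3) in met, 4.94 ± 0.87 (n = 6) in non-met and 5.74 ± 0.25 (n = 2) in control ECs. Both families had their highest mean in met ECs on this scale. The GBP mean was 7.56 ± 0.24 in met, 4.60 ± 0.94 in non-met and 5.37 ± 0.48 in control, and the IRG mean was 7.97 ± 0.32, 5.73 ± 1.37 and 6.58 ± 0.31. Control stood above non-met in these means and below it in summed CPM, where the GBPs averaged 516 CPM in control against 806 in non-met and the IRGs 348 against 357.

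Members at the floor were found mostly in the non-met group. Of the 10 genes, 3 stood at or under 3 reads in non-met 1, 3 in non-met 5, 2 in non-met 3, 2 in non-met 6, 1 in non-met 2 and none in non-met 4. Only met 1 and control 2 had such a gene among the other libraries, 1 each. These 3 reads correspond to between 0.147 CPM (control 1) and 5.43 CPM (non-met 4) depending on the library.

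**Figure D1:**
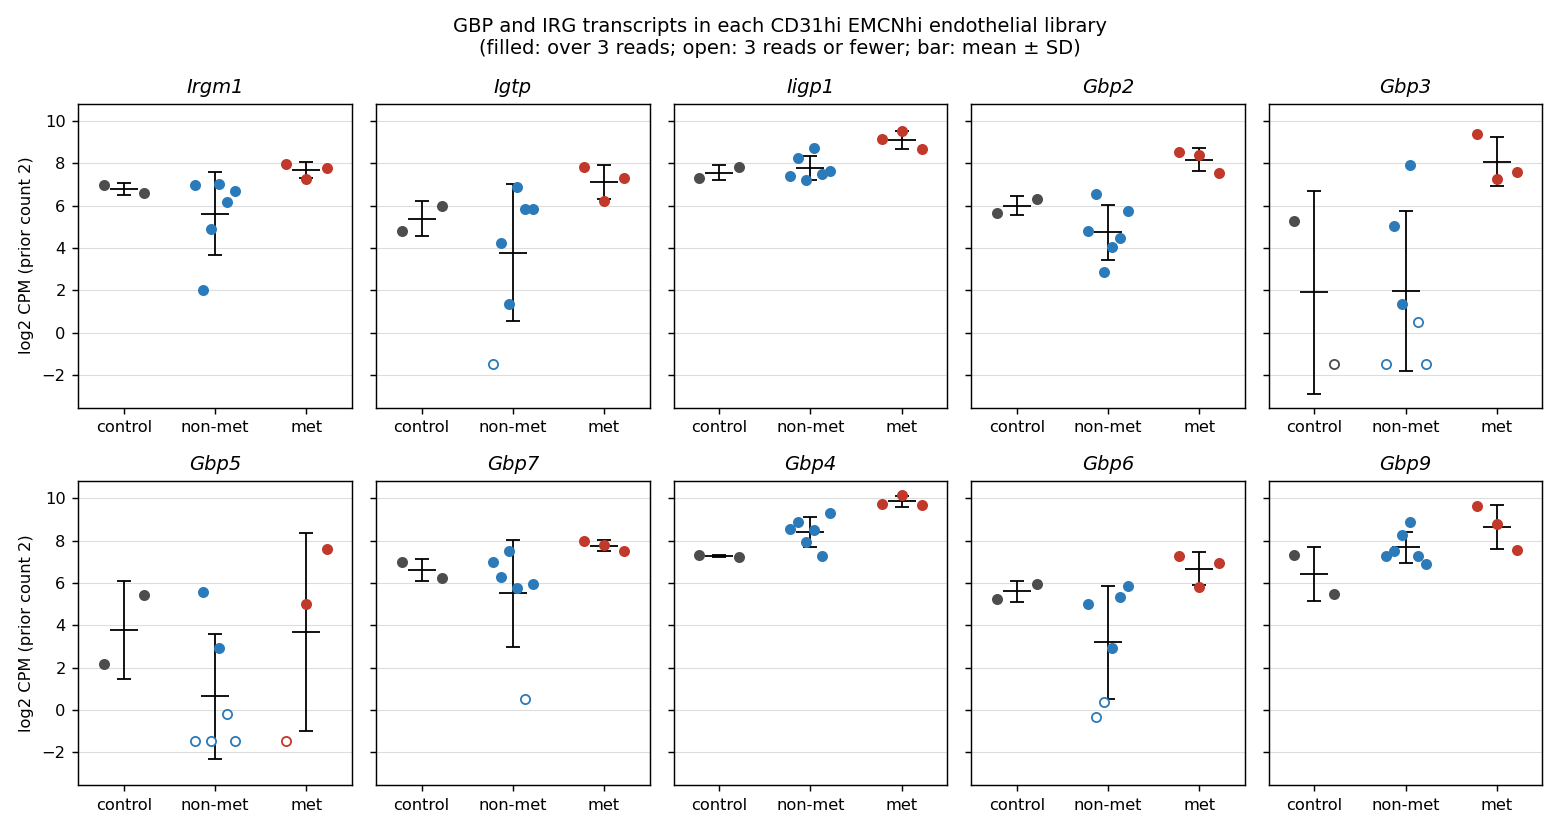
Log2 CPM (vertical axis, prior count 2) of each of the 10 genes in every control, non-met and met library, with the mean ± SD of each group, where filled points have over 3 reads and open points 3 reads or fewer. The met points of Gbp2, Gbp4, Gbp7 and Irgm1 all lie above the non-met points, and Gbp3, Gbp5, Gbp6, Gbp7 and Igtp have open points in the non-met group.

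Among the IRGs, Irgm1 and Igtp encode the regulatory proteins that keep the family's effectors off the cell's own membranes, and Iigp1 encodes an effector that coats pathogen vacuoles. Irgm1 (Entrez 15944, GRCm38.p6 chr11:48865245-48871420) stood at 254, 152 and 223 CPM in met libraries 1, 2 and 3. The non-met libraries had a minimum of 3.63, a median of 87.8 and a maximum of 128 CPM, and the controls had 125 and 96.8 CPM. All 3 met libraries were above all other libraries, and non-met 2 and non-met 3 were the low ones. Fitted over all genes, met exceeded non-met by 2.53 ± 0.90 (SE) on the log2 scale, with an adjusted p of 0.458. The difference was 1.37 without non-met 2, 1.45 in the quasi-likelihood fit of edgeR and 1.24 in DESeq2.

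Igtp (Entrez 16145, chr11:58199556-58207592) had 224, 74.8 and 160 CPM in the met libraries. In non-met ECs it had a minimum of 0, a median of 38.0 and a maximum of 119 CPM, and the controls had 27.7 and 62.6 CPM. The met and non-met ranges overlap, because non-met 4 was above met 2. Non-met 1, with 0 reads, and non-met 3, with 7 reads, were the low libraries. The fitted log2 fold change was 3.30 ± 1.36 with an adjusted p of 0.592, and it was 1.85 in the quasi-likelihood fit and 1.61 in DESeq2.

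Iigp1 (Entrez 60440, chr18:60373616-60392634) was well covered, with 223 or more reads in every library. It had 566, 736 and 406 CPM in met, a minimum of 147, a median of 189 and a maximum of 427 CPM in non-met, and 158 and 225 CPM in control ECs. Non-met 4 was above met 3, and no control reached a met library. The log2 fold change was 1.20 ± 0.41 against non-met (adjusted p = 0.434) and 1.50 ± 0.34 against control (adjusted p = 0.0218), so Iigp1 rose in met ECs relative to the controls in this fit. The call was lost in the quasi-likelihood test (adjusted p = 0.886), in DESeq2 (0.481), on unweighted log2 CPM in limma (0.978), with libraries of 1 pool and group summed (0.104), without met 2 (0.118) and with a term for libraries with at least 5 CPM of keratins (0.574). Without control 1, which leaves 1 control library, the log2 fold change against control was 1.16.

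Gbp2, Gbp3, Gbp5 and Gbp7 lie side by side on chromosome 3, between 142496934 (the start of Gbp5) and 142638008 (the end of Gbp2). The proteins of Gbp2, Gbp3 and Gbp7 are recruited to the vacuole of Toxoplasma, and Gbp5 promotes assembly of the NLRP3 inflammasome. Gbp2 (Entrez 14469, chr3:142620663-142638008) had 376, 340 and 187 CPM in met libraries 1, 2 and 3. The non-met libraries ran from 6.84 through a median of 24.7 to 92.7 CPM, and the controls had 50.7 and 80.1 CPM. No library of another group reached the lowest met library. The fitted log2 fold change was 3.10 ± 1.01 against non-met (adjusted p = 0.368) and 1.98 ± 0.68 against control (adjusted p = 0.145).

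Gbp3 (Entrez 55932, chr3:142560016-142573213) varied widely between libraries. Its met values were 670, 151 and 194 CPM. Its non-met values had a minimum of 0, a median of 1.62 and a maximum of 239 CPM, and the controls had 38.6 and 0 CPM. Only non-met 4 lay within the met range, and control 2, non-met 1 and non-met 6 held no read. Its fitted log2 fold change against non-met, 5.22 ± 1.51, did not pass the test (adjusted p = 0.215). It was 2.92 in the quasi-likelihood fit, 2.68 in DESeq2 and 3.38 with the mouse pool as a fixed replicate block. Without non-met 4 it was 7.57 and was called (adjusted p = 0.0174), where the adjusted p over 25 alternatives ran from 0.0174 to 1.0.

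Gbp7 (Entrez 229900, chr3:142530336-142550151) had 255, 224 and 183 CPM in the met libraries. The non-met minimum was 1.06 CPM, from 2 reads in non-met 5, the median 70.6 and the maximum 183 CPM, and the controls had 127 and 76.2 CPM. Met 3 and non-met 3 nearly meet, at 183.4 and 182.9 CPM, so the separation of the groups is narrow here. The fitted log2 fold change was 1.66 ± 0.90 (adjusted p = 0.734), and without non-met 5 it was 1.10.

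Gbp5 (Entrez 229898, chr3:142496934-142522344) showed no common pattern within a group. It had 0, 31.8 and 194 CPM in met, 4.11 and 42.3 CPM in control, and a minimum of 0, a median of 0.265 and a maximum of 47.6 CPM in non-met libraries. Met 3 was the one high library. The fitted log2 fold change against non-met was 3.64 ± 2.36 (adjusted p = 0.753), and it was 6.14 without met 1, 0.38 without met 2 and -0.21 without met 3.

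Gbp4, Gbp6 and Gbp9 belong to the cluster on chromosome 5. Gbp4 (Entrez 17472, chr5:105115767-105139586) was the most abundant of the 10 in CPM in the met group and never fell below 203 reads. It had 861, 1149 and 833 CPM in met libraries 1, 2 and 3, against a minimum of 157, a median of 369 and a maximum of 633 CPM in non-met and 159 and 151 CPM in control. All met libraries were above all others, and non-met 5 alone was as low as the controls. Against control the log2 fold change was 2.52 ± 0.41 (adjusted p = 0.00058), so Gbp4 rose in met ECs in this fit. The call was lost, at a log2 fold change of 2.59 to 3.08, in the quasi-likelihood test (adjusted p = 0.204), on unweighted log2 CPM in limma (0.137) and with a term for libraries with at least 5 CPM of keratins (0.169). Without control 1, which leaves 1 control library, the log2 fold change was 2.59. Against non-met it was 1.25 ± 0.29 and the adjusted p was 0.061, short of the threshold of 0.05, and over 25 alternatives it ran from 0.0221 to 1.0. Met 3 carried 73.7% of the weight of the met group in the fit of Gbp4. For the 10 genes, the heaviest met library carried between 39.1% and 73.7%.

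Gbp6 (Entrez 100702, chr5:105270702-105295871) and Gbp9 (Entrez 236573, chr5:105076464-105110357) encode further GBPs seen on Toxoplasma vacuoles. Gbp6 had 156, 56.7 and 122 CPM in met and 38.1 and 61.4 CPM in control, with a minimum of 0.435, a median of 19.7 and a maximum of 57.7 CPM in non-met. Met 2 lay within the range of both other groups, and the fitted log2 fold change against non-met was 3.40 ± 1.32 (adjusted p = 0.541), or 2.04 in DESeq2. Gbp9 had 793, 436 and 188 CPM in met and 158 and 45.1 CPM in control, with a minimum of 119, a median of 170 and a maximum of 472 CPM in non-met. Non-met 3 and non-met 4 were above met 3, and the fitted log2 fold change was 0.52 ± 0.50 (adjusted p = 0.835). Met 3 carried 60.1% of the weight of the met group for Gbp9, and the value was 1.44 without it and 0.30 without met 2. Gbp4, Gbp6 and Gbp9 share long near-identical stretches with Gbp8, Gbp10 and Gbp11, and how reads that fit several of them were assigned is not given in the sources used here, so the split between these genes is uncertain.

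The comparison of met with non-met asks whether the endothelium of infiltrated marrow differs from that of the adjacent marrow. In the model fitted over all genes, 0 of the 10 members were called at an adjusted p under 0.05, where 0.418% of all genes tested were called. At an unadjusted p under 0.05 there were 7 of 10 (Gbp2, Gbp3, Gbp4, Gbp6, Irgm1, Igtp and Iigp1), where 7.24% of all genes passed. Fitted values were above 0 for 10 of 10 members and for 51.8% of all genes, and the median was 2.82 on the log2 scale for the members and 0.08 for all genes. The met libraries lay above every non-met library for 4 of 10 members (Gbp2, Gbp4, Gbp7 and Irgm1), and 1.54% of all genes were so separated. The edgeR quasi-likelihood test called 0 of the 10 and 0.142% of all genes. DESeq2 called 1, Gbp2, at an adjusted p of 0.0192, and 2.73% of all genes, where the adjusted p of Gbp2 over 25 alternatives ran from 0.0192 to 1.0. On unweighted log2 CPM in limma every member had an adjusted p of 0.911, and 0.0167% of all genes were called. Of all genes called, 33 of 50 were higher in met in the main fit and 3 of 17 in the quasi-likelihood test. In DESeq2 it was 21 of 326, and on unweighted log2 CPM in limma 0 of 2. With the mouse pool as a fixed replicate block, in a fit of the met and non-met libraries alone, 0 of 10 members and 27 of 9437 genes were called. Of these 27 genes, 3 were higher in met. With the pool as a random block in the model of all libraries, 0 members and 52 of 11949 genes were called, against 50 without a block.

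**Figure D2:**
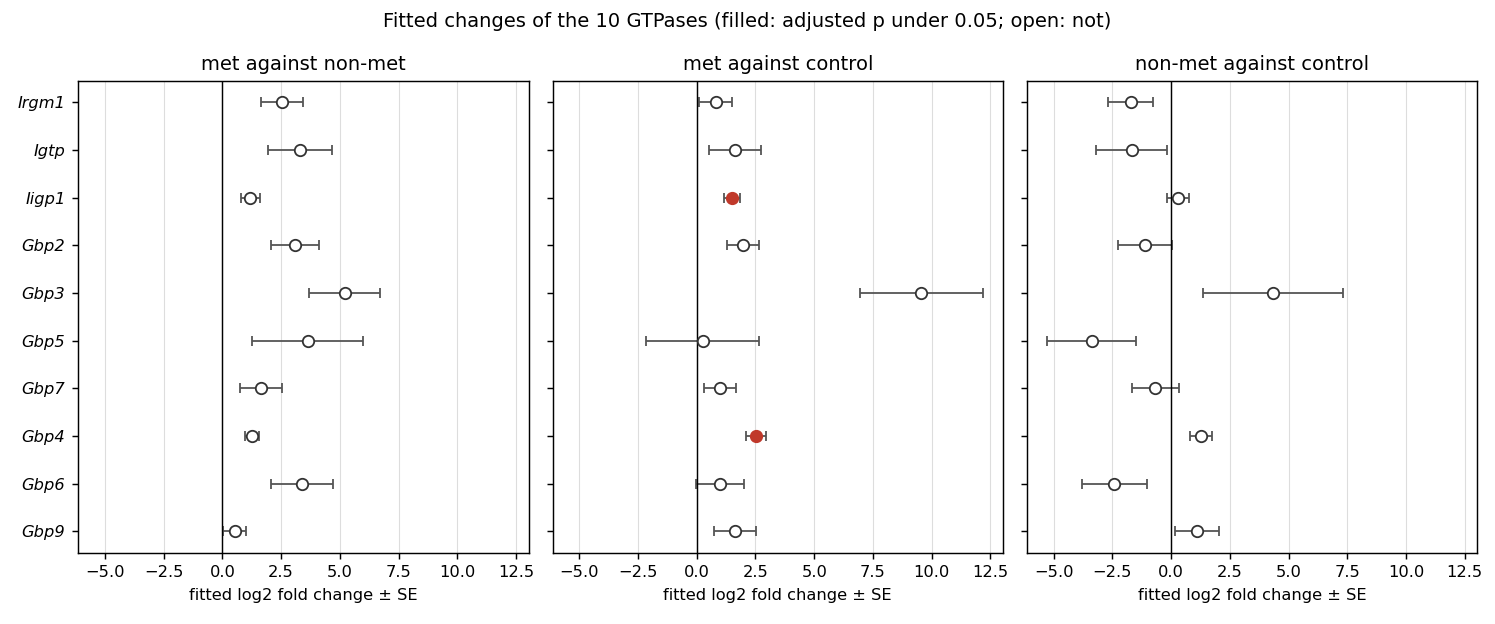
Fitted log2 fold change ± SE (horizontal axis) of the 10 genes in met against non-met, met against control and non-met against control, where filled points have an adjusted p under 0.05. The 10 values of met against non-met lie above 0 with none filled, and only Gbp4 and Iigp1 are filled in met against control.

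The met libraries came from animals that also gave non-met libraries, which allows a comparison within pools Burdened-2, Burdened-3 and Burdened-4. Of 30 pairs of gene and pool, 26 were higher in met. The same share over all genes was not computed, so this count has no base to be read against. The 10 genes of a pool also come from the same libraries, so the pairs are not independent. The mean over the 10 genes was higher in met by 2.35, 3.60 and 1.46 log2 CPM in the 3 pools. Gbp2, Gbp4, Gbp6, Gbp7, Irgm1 and Igtp were higher in met in all 3 pools. For Gbp2 the differences were 2.41, 5.56 and 3.49, where those of Burdened-3 and Burdened-4 rest on 22 reads in non-met 3 and 9 in non-met 4. For Gbp6 they were 4.53, 5.47 and 4.01, values that rest on 3, 3 and 4 reads in non-met 2, 3 and 4. In Burdened-2, Gbp6 stood at 7.29 log2 CPM in met 1 and at 5.86 in the other non-met library, non-met 6, with 65 reads. Those of Gbp4 were less wide, at 0.65, 2.21 and 1.18. The 4 exceptions were Gbp5 in Burdened-2 (-3.53) and Gbp3 (-0.30), Gbp9 (-1.32) and Iigp1 (-0.07) in Burdened-4. Burdened-4 thus held 3 of them and had the lowest mean difference. Its non-met library, non-met 4, had the lowest total count of the series.

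**Figure D3:**
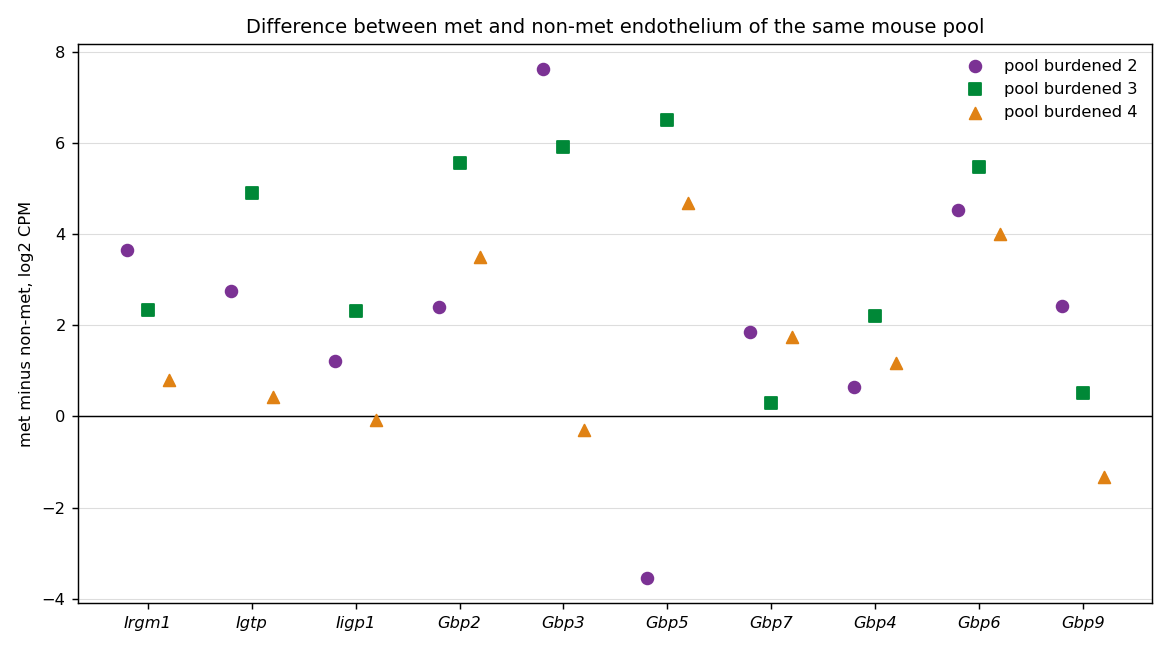
Met minus non-met log2 CPM (vertical axis) of each of the 10 genes in mouse pools Burdened-2, Burdened-3 and Burdened-4, 1 point per pool, where the 2 non-met libraries of Burdened-2 were averaged. The points below 0 are 1 of Gbp5, Gbp3, Gbp9 and Iigp1 each.

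Between met and control ECs, Gbp4 and Iigp1 rose in the main fit and the other 8 genes did not pass the test. The 2 of 10 called compare with 1.20% of all genes, and 4 of 10 with an unadjusted p under 0.05 (Gbp2, Gbp3, Gbp4 and Iigp1) with 14.1%. The median fitted log2 fold change was 1.56 for the members and -0.09 for all genes. Met libraries lay above both controls for 8 of 10 members, all but Gbp5 and Gbp6, where 8.43% of all genes were so separated. Gbp3 had the highest fitted value, 9.56 ± 2.61 (adjusted p = 0.0707), which was 2.41 without control 2, the library with 0 reads, 4.12 in the quasi-likelihood fit and 4.18 in DESeq2. It was called with no low-count filter (adjusted p = 0.0329) and without non-met 4 (0.0397). The values of the remaining genes were 1.62 ± 1.09 for Igtp, 1.62 ± 0.88 for Gbp9, 0.99 ± 0.69 for Gbp7, 0.98 ± 1.01 for Gbp6, 0.80 ± 0.69 for Irgm1 and 0.26 ± 2.40 for Gbp5. Gbp4 was called by DESeq2 (adjusted p = 0.0014) and not on unweighted log2 CPM in limma (adjusted p = 0.137), and over its 23 alternatives the adjusted p ran from 1.51e-06 to 0.204. That of Iigp1 ran from 0.00085 to 0.978, and DESeq2 did not call it (adjusted p = 0.481). The quasi-likelihood test called neither. Without control 1 the control group is 1 library and the spread comes from the other groups, so no call is given for that fit. Over all genes DESeq2 called 1.91%, the quasi-likelihood test 0.0837% and limma on unweighted values 0.0753%.

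The non-met and control libraries overlapped in every member, where 5.03% of all genes had both controls above every non-met library and 1.26% had them below. Of the 10, 0 were called, where 0.636% of all genes were, and 1 (Gbp4) had an unadjusted p under 0.05, where 17.0% of all genes did. The fitted value of Gbp4 was 1.27 ± 0.49 (adjusted p = 0.192). The quasi-likelihood test, DESeq2 and limma on unweighted values likewise called 0 members, where they called 0.117%, 2.23% and 0.067% of all genes. Fitted values were above 0 for 4 of 10, Gbp3, Gbp4, Gbp9 and Iigp1, and the median was -0.89 against -0.33 for all genes. The comparisons share libraries with each other, so their values are given side by side only.

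Levels between the genes were compared per kilobase of exon (log2 RPKM, prior count 2). In met ECs Gbp4 stood highest at 7.69 ± 0.26 (SD, n = 3), followed by Iigp1 at 7.47 ± 0.43, Gbp2 at 6.88 ± 0.55, Gbp9 at 6.79 ± 1.04 and Gbp3 at 6.68 ± 1.15. Irgm1, Igtp and Gbp7 came next, and Gbp6 at 4.58 ± 0.76 and Gbp5 at 2.11 ± 4.68 closed the order. The ranges of every pair of neighbours overlapped. In non-met ECs Gbp4 (6.24 ± 0.71), Iigp1 (6.14 ± 0.59) and Gbp9 (5.82 ± 0.74, n = 6) stood first, with Gbp5 last at -0.95 ± 2.96, and neighbours again overlapped. In the controls Iigp1 (5.92 ± 0.36) and Irgm1 (5.63 ± 0.26, n = 2) stood above Gbp4 (5.10 ± 0.05), and the ranges of Irgm1 and Gbp4, and of Gbp4 and Gbp2 behind it, did not overlap. Gbp4 made up 17.9% and 18.0% of the summed CPM of the 10 genes in the controls, 20.0% to 49.3% in non-met and 20.7% to 34.3% in met libraries.

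Of 13 further GBP and IRG genes tested, 0 were called between met and non-met in either direction, 3 had an unadjusted p under 0.05 with higher values in met (Tgtp1, Tgtp2 and Gbp2b), 10 had fitted values above 0 and the median was 2.14. Tgtp2, an effector IRG, had 143 to 184 CPM in met, 0.311 to 54.2 in non-met and 56.4 to 68.2 in control libraries (log2 fold change against non-met 4.27 ± 1.21, adjusted p = 0.191). Tgtp1, its near-identical copy, had 273 to 491, 9.72 to 374 and 109 to 115 CPM (2.64 ± 0.69, adjusted p = 0.129), and reads of the pair cannot be assigned with certainty. Gbp2b, the neighbour of Gbp2 that is also known as Gbp1, had 167 to 234 CPM in met and 0.53 to 268 CPM in the non-met group (2.14 ± 0.93, adjusted p = 0.624). Fitted values were below 0 for 9930111J21Rik1, 9930111J21Rik2 and Irgq, an atypical member. Gbp10 (2.60), Ifi47 (2.58), Gbp8 (2.18), Gbp11 (2.04), Irgm2 (1.01), Gvin1 (0.65) and F830016B08Rik (3.10) had values above 0, all with adjusted p between 0.739 and 0.924. Gbp8 and Gbp11 had at most 12 and 8 reads in control and 30 and 6 in non-met libraries. In met against control, 0 of the 13 were called, 10 had fitted values above 0 and the median was 1.41. There Ifi47 was at 0.10, Gvin1 at -0.006, Irgm2 at -0.35 and F830016B08Rik at -1.03.

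Ifng, the gene of the cytokine itself, had 0 reads in all 11 libraries. Of 12 genes of interferon-gamma signalling tested, 0 were called in either direction, 0 had an unadjusted p under 0.05, 9 had fitted values above 0 and the median was 0.28. The receptor subunit gene Ifngr1 had 106 to 160 CPM in met, 16.3 to 248 in non-met and 213 to 317 in control libraries (0.35 ± 0.84, adjusted p = 0.955), and Ifngr2 had 0.441 to 79.0, 0 to 109 and 55.4 to 58.7 CPM (2.40 ± 2.20, adjusted p = 0.824). Irf1 had 267 to 318 CPM in met, 76.0 to 292 in non-met and 129 to 168 in control libraries (0.62 ± 0.52, adjusted p = 0.816). Irf8, another IRF factor, had 16.8 to 144 CPM in met, 0 to 55.4 in non-met and 45.5 to 73.6 in control libraries (3.24 ± 1.59, adjusted p = 0.704), and Jak1 had 836 to 1124, 380 to 1047 and 856 to 866 CPM (0.22 ± 0.17, adjusted p = 0.789). Ptpn6, a phosphatase that limits this signalling, had no read in met or control libraries and 0 to 157 CPM in the non-met group (adjusted p = 0.704), where 157 CPM is non-met 1 with 873 reads. DESeq2 called it lower in met (adjusted p = 1.73e-18), and no other alternative that tested it did so. The met values of Irf1 were above both controls and met the top of the non-met range.

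Calls were found among the genes that respond to interferon-gamma alongside the GTPases. Of 20 tested, 3 rose in met relative to non-met and 0 fell, 17 had fitted values above 0 and the median was 1.22. They were Cxcl10 and Cxcl11, chemokines that attract T cells, and Cd74, the invariant chain of MHC class II. Cxcl10 had 131 to 228 CPM in met, 0 to 12.7 in non-met and 9.92 to 12.9 in control libraries (6.92 ± 1.20, adjusted p = 0.00296). Cxcl11 had 24.4 to 111 CPM in met, 0 to 1.81 in non-met and no read in control libraries (6.49, adjusted p = 0.0223). Cd74 had 132 to 287, 0 to 36.1 and 17.6 to 36.4 CPM (5.62 ± 1.24, adjusted p = 0.0377). Psmb9, a subunit of the immunoproteasome, had 47.1 to 78.6, 0 to 68.1 and 31.5 to 39.4 CPM (2.78 ± 1.43, adjusted p = 0.73). The 3 calls were not kept with the mouse pool as a fixed replicate block (adjusted p = 1.0 each), by the quasi-likelihood test, on unweighted log2 CPM in limma, with libraries of 1 pool and group summed, or with either alternative for libraries with keratin reads. Over 25 alternatives the log2 fold change was at least 5.91 for Cxcl10, 5.46 for Cxcl11 and 4.17 for Cd74. The call of Cxcl10 was also lost without met 3, that of Cxcl11 without met 1, met 2 or non-met 1, 2, 5 or 6, and that of Cd74 without met 2, met 3 or non-met 1, 3, 5 or 6, or with RLE scaling. Cxcl9, the third chemokine of this kind, had 239 to 623 CPM in met, 74.2 to 346 in non-met and 310 to 495 in control libraries (1.12 ± 0.70, adjusted p = 0.751).

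Antiviral genes of the type I interferon response had a median of 1.02 over 24 tested, with 0 called, 5 at an unadjusted p under 0.05 with higher values in met and 16 fitted above 0. Isg15, a ubiquitin-like modifier, had 26.9 to 138 CPM in met, 0 to 30.4 in non-met and 0 to 3.42 in control libraries (5.28 ± 1.40, adjusted p = 0.141), and Ifit2 had 41.4 to 125, 0 to 55.6 and 0 to 18.7 CPM (5.17 ± 1.53, adjusted p = 0.236). Xaf1 had 44.2 to 81.7, 0 to 66.3 and 0 to 25.5 CPM (5.07 ± 1.48, adjusted p = 0.224), and Ifih1, a sensor of viral RNA, had 29.4 to 100.2, 0 to 222 and 57.1 to 64.4 CPM (3.51 ± 1.56, adjusted p = 0.646). The conjugation machinery that directs GBPs and IRGs to membranes, listed with the inflammasome genes, had a median of -0.54 over 18 tested, with 0 called in either direction and 6 fitted above 0. Casp4, the sensor of cytosolic lipopolysaccharide, had 0, 0 and 81.7 CPM in met and 3.62 to 134 CPM in the non-met group (-5.65 ± 2.24, adjusted p = 0.566). Gabarapl1, a ubiquitin-like protein of autophagy, had 9.47 to 58.6 CPM in met and 0.311 to 102 CPM in the non-met group (2.89 ± 1.82), Trim21 had 0 to 0.918 and 0 to 62.2 CPM (-3.76 ± 2.33), and Nlrp3 had no read in met or control libraries and 0 to 74.2 CPM in the non-met group, each with an adjusted p of 0.751.

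**Figure D4:**
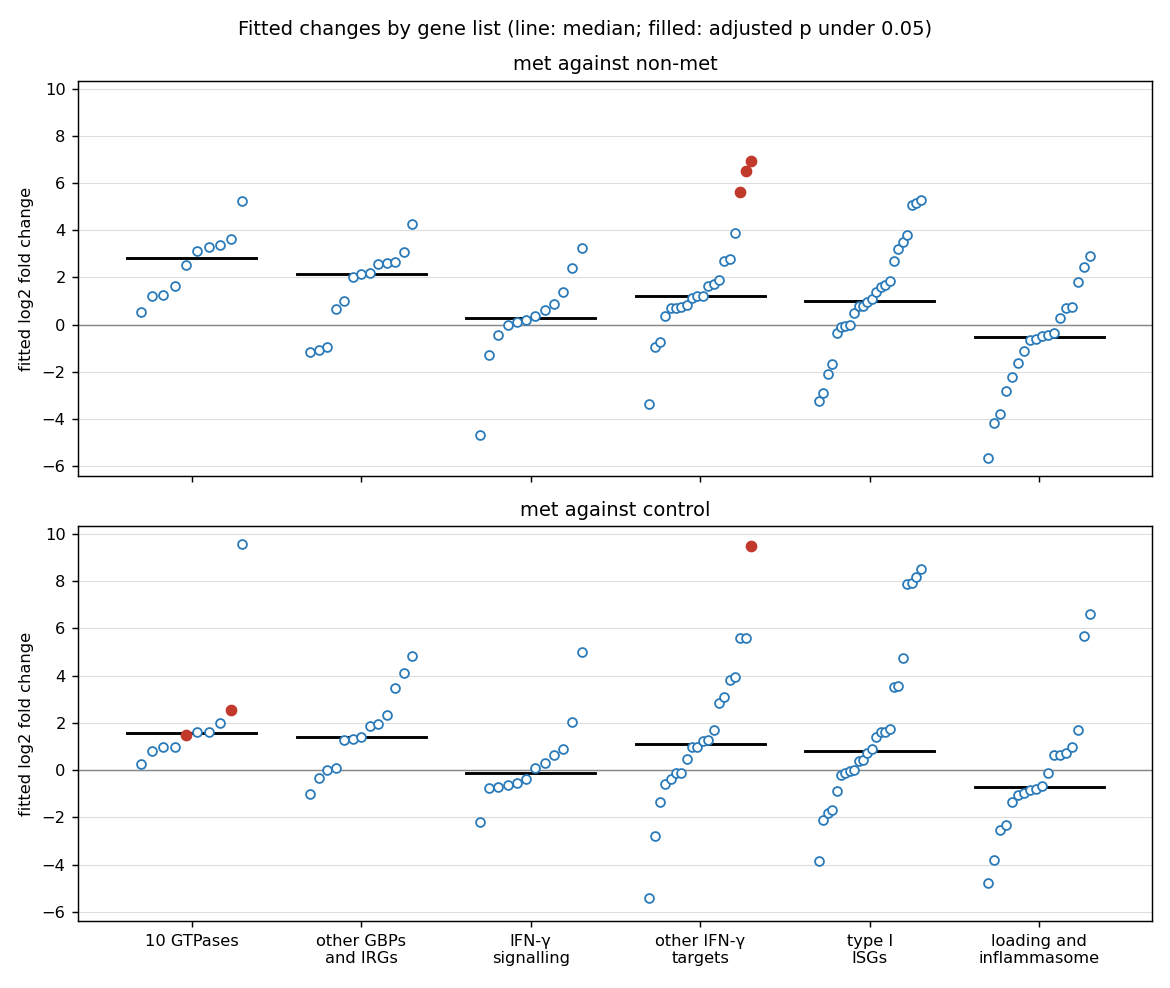
Fitted log2 fold changes (vertical axis) of the tested genes of each list in met against non-met and met against control, 1 point per gene, with the median as a line and filled points for an adjusted p under 0.05. The median of the 10 GTPases is 2.82 in met against non-met, that of interferon-gamma signalling 0.28, and the filled points are Cxcl10, Cxcl11 and Cd74 there and Gbp4, Iigp1 and Cxcl11 in met against control.

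The members also differed in how closely they followed their own mean. Likeness was measured as the root mean square difference between centred log2 CPM profiles over the 11 libraries, a description over libraries that differ in depth. The mean holds each member's own profile and none of the non-members, so members and non-members are not measured alike. Iigp1 lay closest to the mean of the members (0.74), followed by Gbp4 (0.995) and Gbp2 (0.996), and Gbp5 (2.81) and Gbp3 (3.04) lay farthest. The 6 non-members closest to the mean were Rapgef1 (0.67), Myo10 (0.84), Cast (0.85), Strn4 (0.89), Tcp1 (0.89) and Uggt1 (0.91), where a flat profile had 1.31 and the median non-member 2.70. Rapgef1 had 8.17 ± 0.62 log2 CPM in met, 6.66 ± 0.71 in non-met and 7.03 ± 0.32 in control libraries.

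All 12 endothelial markers had over 3 reads in every library, and their sum was 15060 to 18020 CPM in met, 10470 to 18410 in non-met and 9448 to 13800 in control libraries. Pecam1, which encodes the CD31 of the sort, rose by 0.89 ± 0.13 on the log2 scale in met relative to non-met (adjusted p = 0.000455), a call not made by the quasi-likelihood test, by DESeq2, on unweighted log2 CPM in limma, with the fixed replicate block (adjusted p = 1.0) or with either alternative for libraries with keratin reads. Emcn, which encodes the endomucin of the sort, had 674 to 1326 CPM in met, 351 to 1361 in non-met and 510 to 695 in control libraries (0.49 ± 0.20, adjusted p = 0.593). Against control both sort markers were called higher in met, Pecam1 by 1.342 and Emcn by 0.91. Their fitted SEs, 0.015 for Pecam1 and 0.11 for Emcn, are far below the SDs of their log2 CPM, so neither adjusted p is given. The SDs of Pecam1 were 0.233 in met (n = 3) and 0.255 in control ECs (n = 2), and those of Emcn 0.53 and 0.317. Neither marker was called by the quasi-likelihood test, by DESeq2, on unweighted log2 CPM in limma or with the keratin term. The call of Emcn was also lost without met 3. The 11 markers of osteolineage, stromal and perivascular cells, with Bglap at 0 throughout, summed to 546 to 3061 CPM in met, 1171 to 3765 in non-met and 4114 to 10760 in control libraries, and their part in the differences from control was not tested. Interferon-gamma is made by T and NK cells, which the CD45 gate removes, and 7 of their 13 markers (Cd3d, Cd4, Trbc2, Gzma, Gzmb, Klrb1c and Il2rb) were at 0 in every library, with a sum of 0 to 50.6 CPM in met, 0 to 88.7 in non-met and 0 in control libraries. Monocytes and macrophages, which express GBPs strongly and are removed by the same gate, had 354 to 877 CPM over 12 markers in met, 459 to 1398 in non-met and 999 to 1562 in control libraries, with Ccr2, Fcgr1, C1qa, C1qb, C1qc and Ms4a7 at 0 throughout. Granulocyte markers, 10 in number, summed to 35.6 to 204 CPM in met, 397 to 5103 in non-met and 77.8 to 359 in control libraries, and their part in the differences between met and non-met was not tested. Megakaryocyte and platelet markers (6, with Gp9 at 0 throughout) summed to 42.6 to 99.99 CPM in met, 0 to 57.7 in non-met and 0 to 31.3 in control libraries, and their part was likewise not tested. B cell markers (7, with Ms4a1 at 0) summed to at most 96.9, 107 and 17.0 CPM and red cell markers (7, with Slc4a1 at 0) to at most 125, 120 and 62.6 CPM in the 3 groups. The 9 epithelial markers summed to 11.8 to 75.4 CPM in met, 1.44 to 146 in non-met and 1.03 to 19.5 in control libraries. Krt8, Krt18 and Krt19 together had 9.75 to 68.0 CPM in met, 1.44 to 83.5 in non-met and 0.782 to 1.59 in control libraries. Among libraries with at least 5 CPM of these keratins (non-met 3, 4, 5 and 6 and the 3 met libraries, with non-met 2 just under at 4.93) fitted values between met and non-met were above 0 for 10 of 10 members, and 0 were called. In that fit the median of all 8058 genes tested was 0.33, and 13 of them were called, 0 of these higher in met.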

How the data were processed

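RNA was profiled in 11 libraries of sorted CD31hi EMCNhi ECs, and groups and mouse pools were taken from the labels. Per the study's methods and the labels, the authors aligned reads to mm10 with Rsubread and used featureCounts with NCBI gene models supplied by that package to count reads per gene, and removed 1 further library with low mapping. The deposited values are raw counts per gene, not normalised. The kit is not stated to mark strand, so genes that overlap another (Gbp3 with Gm40158, Gbp2 with Mir6381) share reads in principle. Of 27179 rows, 23463 remained after rows without a name, predicted genes, ribosomal RNA and contigs were left out, which held 1.94% to 15.7% of a library's counts. filterByExpr of edgeR (version 4.0.16, minimum count 10, minimum total 15) left 11949 genes.

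The test was voomLmFit with empirical sample weights (0.43 to 1.96), as the authors state, on TMM-scaled counts, in 1 model of 11 libraries and 3 groups, with contrasts in limma 3.58.1 and Benjamini-Hochberg adjustment over all genes at a threshold of 0.05. It was tested on simulated data. Adjusted p-values come from this fit unless another tool is named. Alternatives included DESeq2 1.42.0, the quasi-likelihood test of edgeR, limma on unweighted log2 CPM, other scalings, filters and blocks, and each library left out. The keratin alternatives were added after seeing the data. Each library is a pool of animals, and the same pool gave met and non-met libraries per the labels. Deviations from group means of the met and non-met libraries of 1 pool (4 pairs) correlated between -0.0204 and 0.0217 (Spearman, across 11949 genes). Counting error sets the floor of 3 reads, and PCR reads are not independent molecules. The members and gene lists were chosen with earlier results of these data known. Besides the 10 members, the genes named are the other GBP and IRG genes tested, Ifng, its receptor genes, Irf1, Cxcl9, Cxcl10, Pecam1, and genes of each list taken among the 4 with the lowest adjusted p. A gene that this rule also names is not reported here.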

Additional observations from a re-analysis of the deposited data

Results flagged for a closer look

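Gbp7 in non-met 5 stood apart from the other non-met libraries, at 0.503 log2 CPM from 2 reads. Its gap to the nearest library was 0.751 of the group's range, above the critical value of Dixon's test for 6 libraries. Such a gap was looked for in 12 groups of values, and chance gives about 1 in 20.

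Reads of 2 related genes outside the tests stood above the controls in some libraries. The predicted gene Gm12250, also known as Irgb10 and an IRG, had 76.4 CPM in met 3 and 13.6 CPM in met 2, with 2.35 and 0 CPM in the controls, 0 CPM in met 1 and no more than 1.81 CPM in any non-met library. Gm4951, a predicted gene related to Iigp1, had 127 CPM in non-met 2 against 49.2 and 43.0 CPM in the controls, and 0.44, 34.3 and 58.4 CPM in met libraries 1, 2 and 3. The other 5 non-met libraries had 0 to 36.2 CPM, below both controls.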

How the results depend on the processing

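In met against non-met, 241 of 250 refitted values of the members kept their direction and their side of the threshold, 8 passed it and 1 reversed. The main analysis called 0 members. DESeq2 called 1 (Gbp2), and 1 (Gbp4) was called with no sample weights, with scaling by library size alone and with no low-count filter. Leaving out each library gave 0 to 1, with Gbp4 called without control 1, control 2 or met 3, and Gbp3 without non-met 4. With the mouse pool as a fixed replicate block 0 were called, as also with the random block. Gbp5 reversed without met 3, in a range of -0.21 to 6.14 over libraries left out. The count of members with every met library above the non-met group was 4 to 7, with 7 when non-met 4 was left out, where 2.20% of all genes were so separated (1.98% to 4.18% over libraries left out). Scaling by RLE moved the median of all genes from 0.08 to -0.09, and the 10 members stayed above 0.

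In met against control, 2 members were called, 0 by the quasi-likelihood test, 1 (Gbp4) by DESeq2, 0 on unweighted log2 CPM in limma, 1 (Gbp4) with libraries of 1 pool and group summed, 3 (Gbp3 added) with no low-count filter, and 0 with a term for libraries with at least 5 CPM of Krt8, Krt18 and Krt19, where 4 of 11949 genes were called in all. Leaving out a met or non-met library gave 1 (Gbp4) without met 2, 3 (Gbp3 added) without non-met 4 and 2 otherwise. Leaving out a control leaves 1 control library, so no count is given for those fits. Gbp5 was -0.078 in limma on unweighted values and ran from -3.47 to 2.76 over libraries left out, reversed without control 1, met 2 or met 3. With the keratin term Gbp6 was -0.21, Irgm1 -0.69 and Igtp -3.28, while Gbp4 was 3.08 and Iigp1 1.78. In non-met against control 0 members were called under every alternative. Gbp3 ran from -2.88 to 5.90 and Iigp1 from -0.071 to 0.45 over libraries left out, reversed without control 2 and control 1, and Igtp was 0.031 in DESeq2. The genes called over all varied from 2 to 326, 4 to 429 and 8 to 266 in the 3 comparisons, from 50, 143 and 76. The cause of these shifts was not tested. With 2 controls and as few as 733342 counts in a library, the floor of 3 reads reached 5.43 CPM.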
